A study of Mus musculus with 15 samples.

Results

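The comparison described here sets ileal epithelium of adult mice with a conditional Gata4 knockin (cKI ileum, n = 3 arrays) against ileal epithelium of adult control mice (control ileum, n = 3 arrays). The arrays were taken by their titles, and they are 6 of the 15 arrays of the series. Jejunal and ileal epithelium of adult wild-type CD1 mice, with 3 arrays each, serves as a scale of regional difference, and that scale shares no array with the knockin comparison. Jejunum of Gata4 conditional knockout mice (3 arrays) enters the common estimate of the spread, the level filter and the choice of the transcript cluster that stands for a gene. Apart from that, only its Gata4 values are given. In every group, epithelial cells were isolated from the small intestine and their RNA was hybridised to Affymetrix Mouse Gene 1.0 arrays. The labels give for the knockin neither the promoter and recombinase behind it nor the allele, and for the controls neither genotype nor strain. Nor do they say that the arrays of a group came from separate mice, so p-values measure the spread between these arrays, which may be technical.

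Gata4 is a zinc finger transcription factor that binds GATA letters in DNA. In the small intestine it is made in the epithelium of duodenum and jejunum and is largely absent from the distal ileum. The jejunum takes up most sugars and fats, whereas the ileum recovers bile acids and cobalamin. Gata4 is known as a regulator that favours jejunal over ileal genes, so a knockin in the ileum asks which ileal genes move when the factor is supplied where it is normally low.

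Array medians lay between 4.82 and 5.0 on the log2 scale of the deposited values, and with 3 arrays a group their number sets the precision. The test took in 11784 of 19938 genes named by a symbol, each with at least 1 group mean above 4.91, which is the median over the whole table. Differences are cKI minus control on the log2 scale, ± the standard error from limma. A gene is called when its adjusted p (limma, Benjamini-Hochberg over all genes tested) is below 0.05. The 12 epithelial genes of a marker list, among them Epcam and Vil1, averaged 11.25, 11.19 and 11.19 in controls 1 to 3 and lay between 10.88 and 11.24 in the cKI arrays, and limma called 0 of them, with 1 at an unadjusted p below 0.05. Of their differences 11 were negative, with a median of -0.14. Control 2 stood apart: its stromal list averaged 6.76 against 5.40 to 6.11 in the other 5 arrays, and its interferon list 7.90 against 5.85 to 6.87. Control 3 was the highest array for the myeloid list (6.57) and the MHC class II list (9.0). Counts and list medians that rest on control 2 are given without it too.

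The knockin ileum differed from the control ileum in few genes, and the differences were modest. Of the genes tested, 40 were called higher (0.339%) and 50 lower (0.424%), while the median difference of all genes was 0.03. The difference reached 2-fold in 10 of the higher and 21 of the lower genes. In all 90 called genes the 3 cKI values lay outside the range of the 3 control values, as they did in 20.9% of all genes tested, and in 79 both group means were above the level filter. The counts depended on single arrays. Without control 1 they were 37 higher and 155 lower, without control 2 they were 16 and 24, and without control 3 they were 6 and 33. Leaving out cKI 1 gave 7 and 13, leaving out cKI 2 gave 21 and 56, and leaving out cKI 3 gave 16 and 22. Of the 90 genes, 13 were called in each of these 6 fits: Gata4, Rragd, Mt1 and Lmcd1 higher, and Suox, Fabp6, Slc13a1, Slc25a48, Sqor, Rnf180, Prss23, Enpp4 and Clca1 lower. All but Gata4, Rragd and Clca1 were also called in every other alternative that tested them, which for Lmcd1 were 14 of the 15, since the stricter level filter left it out. The fit of the 6 arrays alone kept 15 of the 90 calls, and the fit without a level filter lost 41. Losses given beside a gene below are, unless another fit is named, those with 1 array fewer or with the replicate number as a block. With array weights, limma called 388 genes higher and 378 lower, and most calls gained there are not given for single genes.

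Gata4 itself (transcript cluster 10420747) was higher in the knockin ileum, at a level between those of wild-type ileum and jejunum. Its log2 values were 6.71, 7.22 and 6.53 in controls 1 to 3 and 8.02, 8.43 and 8.17 in cKI arrays 1 to 3. The groups did not overlap, and the difference was 1.38 ± 0.185, or 2.61-fold (adjusted p = 0.00453). Wild-type ileum stood at 5.6 ± 0.34 and wild-type jejunum at 9.53 ± 0.13 (SD, n = 3 each), so the knockin difference was 35.2% of the regional one. The controls were above the wild-type ileum by 1.22 (adjusted p = 0.000284). In the jejunum of the conditional knockout the same cluster stood at 9.72, 9.88 and 9.93, above the wild-type jejunum. Its signal may therefore not measure intact Gata4 transcript, which was not tested. In a fit of the 6 arrays alone, the adjusted p of Gata4 was 0.0524 and that of Rragd 0.0557.

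Other factors of the GATA network were not called. Gata6, a paralog, differed by 0.18 ± 0.0997 (adjusted p = 0.414), and Gata5, the third intestinal member, by -0.31 ± 0.181 (adjusted p = 0.432). Zfpm1, a cofactor that binds GATA proteins, differed by 0.49 ± 0.142 (adjusted p = 0.133). Onecut2, a homeobox factor 3.18 higher in the wild-type jejunum than in the ileum, differed by -0.21 ± 0.168 in the knockin. Of 23 tested GATA and intestinal transcription factors, Gata4 was called, and the list's median was -0.05 beside 0.03 for all genes.

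**Figure D1:**
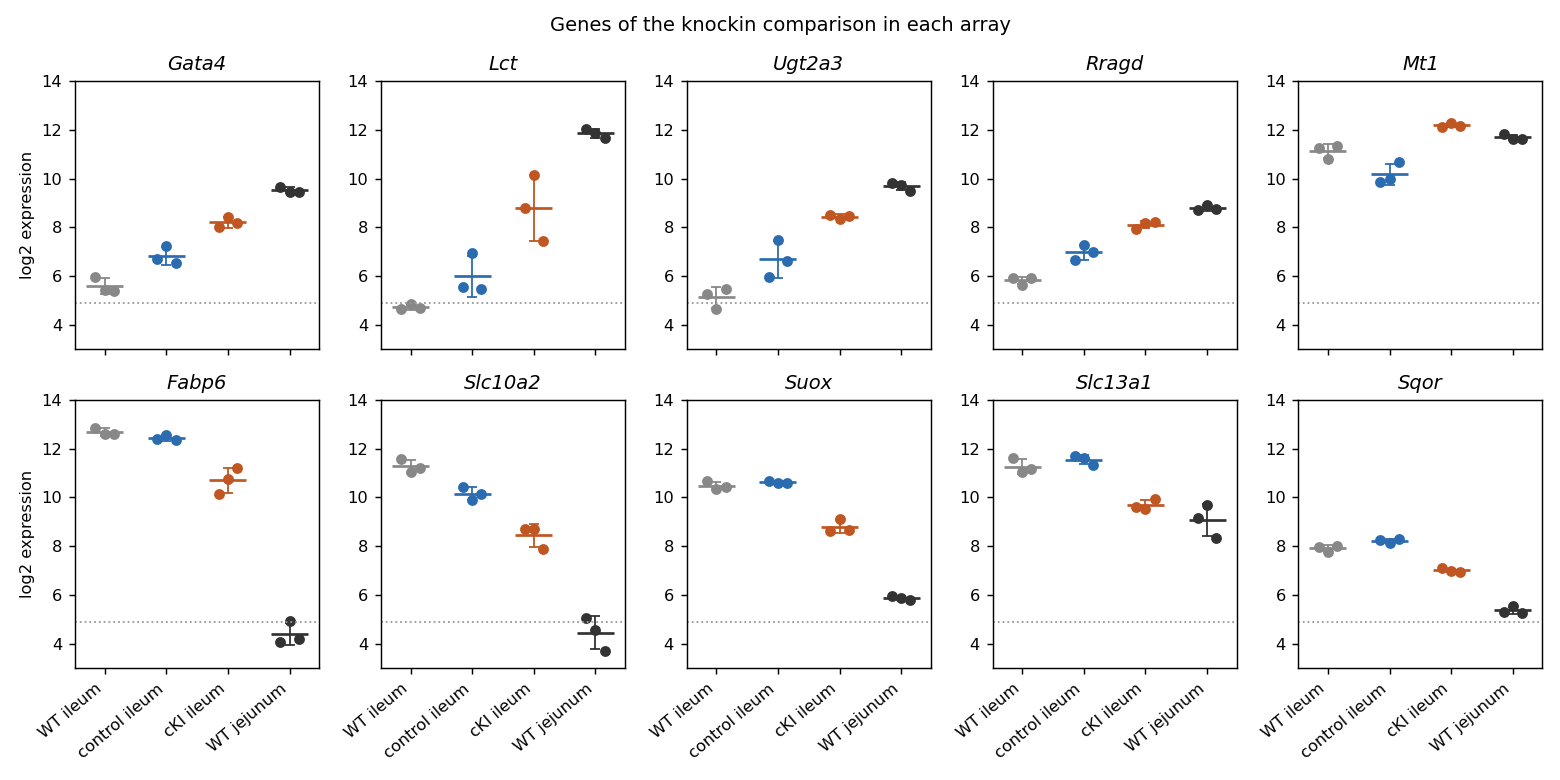
Log2 expression of 10 genes in each array of 4 groups (points), with the group mean (line) and SD (bar); the dotted line marks the level filter of 4.91. In the upper row, from Gata4 to Mt1, the 3 cKI arrays lie above the 3 control arrays, and in the lower row, from Fabp6 to Sqor, they lie below them.

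Genes that carry sulfate and dispose of sulfite and sulfide were among the clearest falls. Slc13a1, the sodium-dependent sulfate transporter of kidney and gut, had log2 values of 11.70, 11.60 and 11.33 in controls and 9.59, 9.54 and 9.92 in cKI arrays. It fell by 1.86, with a standard error of 0.257 (3.63-fold lower, adjusted p = 0.00499). Suox, the mitochondrial enzyme that oxidises sulfite to sulfate, stood at 10.66, 10.60 and 10.61 in controls and at 8.62, 9.12 and 8.66 in cKI arrays. The difference of -1.82 ± 0.151 (3.53-fold, adjusted p = 3.57e-05) compares with a control spread of 0.03 and a cKI spread of 0.28 (SD). Sqor, which oxidises hydrogen sulfide in mitochondria, was at 8.23, 8.13 and 8.30 in controls and at 7.10, 6.96 and 6.96 in cKI arrays, a fall by 1.22 (adjusted p = 0.000197). None of these 3 genes overlapped between groups, and each kept its call in all 15 alternatives.

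Mpst, the sulfurtransferase that makes sulfide from mercaptopyruvate, was also called lower, by -0.80 ± 0.161 (adjusted p = 0.0373). It lost the call in 5 of 6 fits with 1 array fewer, with adjusted p of 0.062 without control 3 and up to 0.143 without cKI 1, and values between these without control 2, cKI 2 or cKI 3. Bpnt1, the phosphatase that clears the by-product of sulfation, was called higher by 0.71 ± 0.123 (adjusted p = 0.0172; 0.0508 to 0.0703 without control 2, control 3, cKI 1 or cKI 2). Tst, a thiosulfate sulfurtransferase, and Ethe1, a persulfide dioxygenase, differed by -0.42 and -0.24 and were not called. Of 18 tested sulfate and sulfite genes, 4 were called lower and 1 higher, and the median was -0.21.

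Genes for the uptake and binding of bile acids, whose recovery is a task of the ileum, were lower in the knockin. Fabp6, the ileal protein that binds bile acids in the cytosol, stood at 12.40, 12.56 and 12.35 in controls and at 10.15, 10.74 and 11.19 in cKI arrays. It fell by 1.75, with a standard error of 0.24 (3.35-fold lower, adjusted p = 0.00499), and was called in each alternative, with adjusted p up to 0.0485. Slc10a2, the apical sodium-dependent bile acid transporter, was at 10.44, 9.89 and 10.12 in controls and at 8.72, 8.72 and 7.90 in cKI arrays. Its difference was -1.70 ± 0.291 (adjusted p = 0.016), and the call was lost without control 3 (0.0509) or cKI 3 (0.0618). In the controls Slc10a2 was already below the wild-type ileum by -1.12 (adjusted p = 0.01). Even so, both genes stayed far above the wild-type jejunum, where Fabp6 averaged 4.40 and Slc10a2 4.45.

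Further along the pathway no gene was called, although array weights gave calls for the 4 falls of Fgf15 (adjusted p = 0.00656), Nr0b2 (0.0146), Slc51a (0.0196) and Slc51b (0.0345). They also called a rise of Nr1i3, a nuclear receptor of the same list (0.0198). In the main fit Nr1i3 differed by 0.86 ± 0.198 (adjusted p = 0.0633). Fgf15, the hormone that the ileum secretes in response to bile acids, was at 8.16, 6.56 and 8.02 in controls and at 4.89, 5.43 and 5.0 in cKI arrays. These arrays did not overlap, but the spread left an adjusted p of 0.0937 for a difference of -2.48 ± 0.633. Nr0b2, a repressor induced by bile acids, differed by -0.90 ± 0.199 (adjusted p = 0.0517; 0.0349 without control 3). Slc51a and Slc51b, the subunits of the basolateral bile acid exporter, differed by -0.74 and -0.65, and Nr1h4, the bile acid receptor FXR, by -0.46. In the list of 12 tested bile acid genes, 2 were called lower, 10 differences were negative and the median was -0.56.

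Several other genes of the ileal epithelium were lower as well. Tmigd1, an adhesion protein of the enterocyte, stood at 10.85, 10.51 and 10.30 in controls and at 8.59, 9.35 and 8.29 in cKI arrays (-1.81 ± 0.299, adjusted p = 0.0157; 0.0703 without cKI 1 and 0.0553 without cKI 3). Slc25a48, a mitochondrial carrier, was at 7.90, 7.03 and 6.91 in controls and at 5.26, 5.42 and 5.59 in cKI arrays, a fall by 1.86 (adjusted p = 0.00652). Rnf180, an E3 ubiquitin ligase, was at 6.68, 6.54 and 6.80 in controls and at 5.07, 5.31 and 5.23 in cKI arrays (-1.47 ± 0.123, adjusted p = 3.57e-05). The group ranges of these 3 genes were apart. Prss23, a secreted serine protease, fell by 1.29 (adjusted p = 0.00263). Trpm6, a channel for magnesium uptake, differed by -1.34 ± 0.236 (adjusted p = 0.0186; 0.0581 without control 2 and 0.0862 without cKI 1).

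Cubn, the receptor through which the ileum takes up cobalamin bound to intrinsic factor, was not called but had a large difference. It was at 10.55, 10.73 and 9.33 in controls and at 7.89, 8.84 and 7.63 in cKI arrays, with no overlap (-2.09 ± 0.473, adjusted p = 0.0594). Left without control 3 or without cKI 2, the fit called it (0.0426 and 0.0443), and so did the fit with the replicate number as a block (0.019). Its partner Amn, which anchors cubilin in the membrane, differed by -0.29 (adjusted p = 0.561). Mep1a, a brush border metallopeptidase, differed by -1.04 ± 0.245 (adjusted p = 0.0698, and 0.0244 with the replicate block).

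A few jejunal genes of digestion and detoxification were called higher, among them Lct, Ugt2a3 and Hsd17b6, and these 3 stayed well below their level in the wild-type jejunum. Of 20 tested genes of sugar transport and fructose breakdown limma called 0 (2 at an unadjusted p below 0.05), and of 24 cytochrome P450 genes it called 1, which was lower. Lct, which encodes lactase, stood at 5.56, 6.95 and 5.47 in controls and at 8.78, 10.13 and 7.45 in cKI arrays. The difference was 2.79 ± 0.596, or 6.93-fold (adjusted p = 0.0475), the largest rise among the called genes. The cKI arrays were apart from the controls but spread over a wide range, and the call was lost without control 1, control 3, cKI 1 or cKI 2 (adjusted p from 0.0794 to 0.154). Ugt2a3, a glucuronosyltransferase, was at 5.98, 7.47 and 6.62 in controls and at 8.52, 8.33 and 8.47 in cKI arrays (1.75 ± 0.281, adjusted p = 0.0142, and 0.0703 without cKI 1). The controls already lay above the wild-type ileum in Ugt2a3 (5.255, 4.65 and 5.49) and in Lct (4.64, 4.85 and 4.69). Hsd17b6, a steroid and retinol dehydrogenase, was at 5.78, 5.65 and 6.01 in controls and at 7.31, 8.15 and 7.09 in cKI arrays. Its difference of 1.70 ± 0.359 (adjusted p = 0.0475) was called in none of the 6 fits with 1 array fewer (0.0621 to 0.131), nor with the replicate block (0.0732).

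Of 4 tested disaccharidases of the brush border, Lct was the 1 call. Treh, Mgam and Sis, which encode trehalase, maltase-glucoamylase and sucrase-isomaltase, differed by -0.25, -0.17 and -0.14, with adjusted p of 0.531 or more. Uptake genes of the jejunum had larger differences that were not called. Fabp1, which binds fatty acids in proximal enterocytes, was at 4.05, 5.79 and 5.57 in controls and at 7.47, 9.41 and 6.31 in cKI arrays (2.59 ± 0.645, adjusted p = 0.0855; 0.0431 without cKI 3). Cd36, a fatty acid translocase, differed by 1.52 ± 0.365 (adjusted p = 0.0729; 0.0206 without control 2, and 0.0353 with the replicate block). For Slc5a12, a sodium-coupled lactate transporter, cKI arrays 1 and 2 stood at 8.58 and 9.09 and cKI 3 at 5.71, within reach of the controls at 6.41, 6.21 and 5.78 (1.66 ± 0.674, adjusted p = 0.271). In Lct, Fabp1, Slc5a12 and Slc5a4b, a sodium-coupled sugar carrier, cKI 2 was the highest of the cKI arrays and cKI 3 the lowest.

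Enzymes that conjugate glutathione or glucuronic acid included 2 called rises among 25 tested members, Ugt2a3 and Gstm6. Gstm6 rose by 0.87 ± 0.168 (adjusted p = 0.0332) and Gstm7, a relative outside the list, by 0.72 ± 0.154 (adjusted p = 0.0477). Both lost the call in each of the 6 fits with 1 array fewer (0.0545 to 0.143). Gstm1 and Gstm3 differed by 0.88 and 1.35 without passing the test (adjusted p = 0.0602 and 0.0929). Probes of so similar a family can share signal, so the members are not independent. The list's median was 0.16.

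Rragd, a Rag GTPase that signals amino acid supply to mTORC1 at the lysosome, was called higher. It stood at 6.67, 7.29 and 6.98 in controls and at 7.94, 8.19 and 8.23 in cKI arrays, a difference of 1.14 ± 0.16 (2.21-fold, adjusted p = 0.00547). The groups were apart, and the knockin difference was 38.3% of the regional one. Wild-type ileum stood at 5.91, 5.66 and 5.91, below each control array, so the rise did not start from the wild-type ileal level. Rragd was the 1 gene called of 23 tested Rag GTPases, folliculin partners and regulators, whose median was 0.12. Il33, an alarmin cytokine, was at 4.03, 4.28 and 4.22 in controls, below the level filter, and at 5.41, 6.22 and 5.35 in cKI arrays (1.48 ± 0.3, adjusted p = 0.0377). It was called in none of the 6 fits with 1 array fewer (0.0613 to 0.0918).

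Mt1, a metallothionein that binds zinc and copper, had the smallest adjusted p of any rise. Its values were 9.87, 9.99 and 10.67 in controls and 12.12, 12.28 and 12.15 in cKI arrays, a difference of 2.01 ± 0.179 (4.02-fold, adjusted p = 5.66e-05). It also moved further in the knockin than between regions. Wild-type ileum and jejunum stood at 11.13 ± 0.29 and 11.69 (n = 3 each), and the knockin difference exceeded the regional one by 1.45 (adjusted p = 0.00206). The controls lay below the wild-type ileum by -0.95 (adjusted p = 0.00132), whereas the cKI arrays lay above the wild-type jejunum. Mt2, its neighbouring paralog, differed by 0.56 ± 0.309 (adjusted p = 0.409), with overlapping arrays. Slc30a1, a zinc exporter, and Slc39a8, a zinc importer, differed by -0.68 and 0.61 and were not called. Among 17 tested metallothioneins and zinc transporters, Mt1 was the 1 call, and the median was -0.01.

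The region around the transcription start is shown for 4 of these genes, Lct and Mt1 as the leading rises and Slc10a2 and Suox as leading falls, since a knockin of a DNA-binding factor makes the letters it binds of interest. Sequences are from RefSeq, build GRCm38.p6, 250 bases before to 50 after the start, 5′ to 3′ on the gene's strand. The start is the one listed first for each gene, and a gene may have others. Capitals in Lct and Slc10a2 mark GATA matches (AGATAA, also with T as first or G as last letter, on either strand), and capitals in Mt1 mark matches to TGCACNC or TGCGCNC on either strand, the core of the metal response element. The Suox window held no GATA match. Lct lies at chr1:128328269-128328568 on the minus strand, Mt1 at chr8:94178839-94179138 on the plus strand, Slc10a2 at chr8:5105238-5105537 on the minus strand and Suox at chr10:128673869-128674168 on the minus strand.
Lct: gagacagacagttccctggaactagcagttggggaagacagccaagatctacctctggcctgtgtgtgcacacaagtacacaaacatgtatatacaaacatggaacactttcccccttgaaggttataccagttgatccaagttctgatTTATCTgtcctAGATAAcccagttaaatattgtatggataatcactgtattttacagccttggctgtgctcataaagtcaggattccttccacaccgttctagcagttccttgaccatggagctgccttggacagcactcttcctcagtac
Mt1: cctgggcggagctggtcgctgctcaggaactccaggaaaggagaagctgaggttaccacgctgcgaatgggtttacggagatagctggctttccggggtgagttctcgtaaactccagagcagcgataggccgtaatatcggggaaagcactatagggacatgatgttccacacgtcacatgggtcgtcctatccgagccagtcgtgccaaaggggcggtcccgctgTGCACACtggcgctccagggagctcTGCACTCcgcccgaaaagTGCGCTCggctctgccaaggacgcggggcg
Slc10a2: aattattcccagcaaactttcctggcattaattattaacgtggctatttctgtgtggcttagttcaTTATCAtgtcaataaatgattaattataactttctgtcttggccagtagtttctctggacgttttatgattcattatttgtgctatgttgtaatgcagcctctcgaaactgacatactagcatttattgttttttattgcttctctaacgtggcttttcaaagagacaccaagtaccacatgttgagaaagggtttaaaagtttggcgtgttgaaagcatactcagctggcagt
Suox: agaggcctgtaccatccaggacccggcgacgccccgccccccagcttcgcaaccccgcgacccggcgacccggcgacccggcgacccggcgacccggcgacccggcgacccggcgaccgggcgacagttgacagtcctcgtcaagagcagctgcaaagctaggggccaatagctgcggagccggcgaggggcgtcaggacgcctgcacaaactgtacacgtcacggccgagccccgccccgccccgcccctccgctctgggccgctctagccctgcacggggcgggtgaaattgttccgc

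Counting the first base of the transcript as 1 and the base before it as -1, the Lct matches lay at -101 to -96 and at -90 to -85, on opposite strands. The Slc10a2 match lay at -184 to -179. In Mt1 the letters of the metal response element occurred 3 times, at -23 to -17, 3 to 9 and 21 to 27. All positions count from the start listed first, and windows at other starts were not searched. Matches left in lower case are 1 GATA match in Mt1 and 2 metal response matches in Lct. Of the called genes with a RefSeq window, 11 of 34 higher genes (32.4%) and 7 of 36 lower genes (19.4%) held a GATA match. This compares with 18.7% of 9428 tested genes and 30.2% of all 27025 genes in the table. The metal response letters occurred in 29.4% of the higher and 41.7% of the lower genes, beside 36.0% of the tested genes. A match describes these letters in this window and does not show binding.

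Against the wild-type regional scale, most called genes went in the direction of their region. Between wild-type jejunum and ileum, 1575 genes were called higher in the jejunum (13.4%) and 932 lower (7.91%). Of the 40 genes higher in the knockin, 25 were jejunum-high, 14 were not called between regions and 1 was ileum-high. Of the 50 lower genes, 37 were ileum-high, 12 were not called between regions and 1 was jejunum-high. Among the 37 were Pdgfrb, Abi3bp, Jchain, H2-Aa and Ciita, which are described below with stromal and immune genes. The part that cells other than epithelium have in the regional counts, means and index was not tested. Across all 11784 genes the knockin and regional differences had r = 0.31, as a description of genes, which are not independent replicates.

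**Figure D2:**
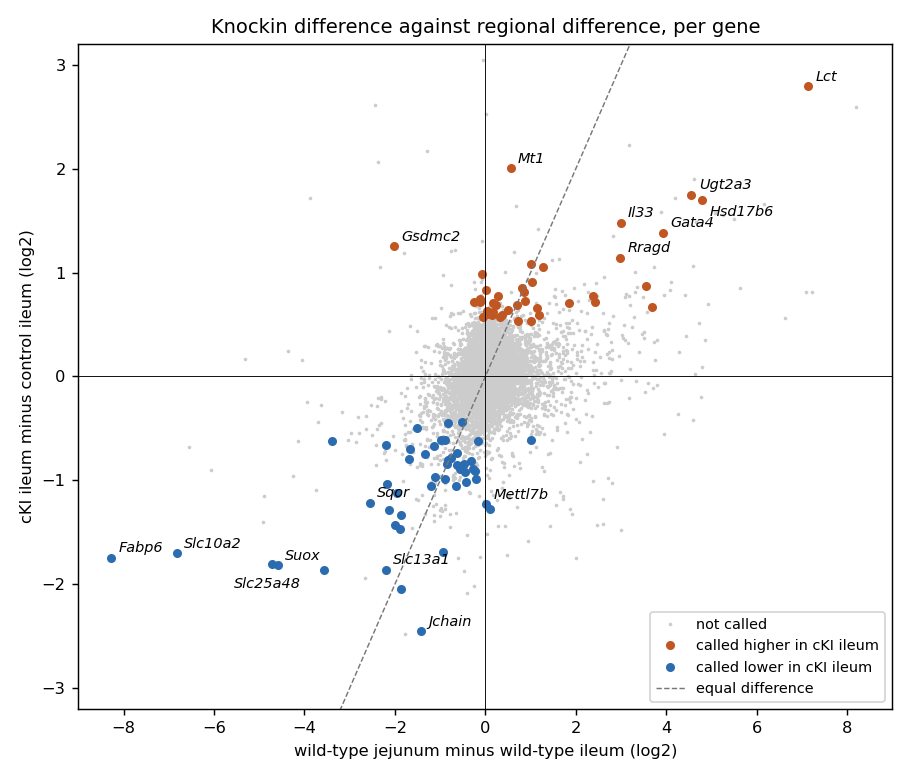
For each of 11784 tested genes, the difference between wild-type jejunum and ileum (x axis, log2) against the difference between cKI and control ileum (y axis, log2), with genes called in the knockin in colour and the line of equal differences dashed. Called rises lie mostly at the right and called falls mostly at the left, at less than the regional difference for most, while Mt1 lies above the line and Gsdmc2 on the side opposite to its region.

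Genes of both regions moved by less than the regional difference. Regional genes were those called between the wild-type regions with at least a 2-fold difference. Of 491 jejunum-high genes, 17 were called higher in the knockin (3.46%) and 1 lower, and their median difference was 0.13 beside a regional median of 1.57. Of 233 ileum-high genes, 24 were called lower (10.3%) and 1 higher, with a median of -0.40 beside a regional median of -1.41. In 421 jejunum-high and 146 ileum-high genes the knockin and regional differences themselves differed (adjusted p below 0.05), and in each of them the knockin difference was the smaller. The regional difference chose these genes, which favours that direction. The count of 41 regional genes called in the direction of the region was 46 without control 1, 28 without control 2, 18 without control 3, 14 without cKI 1, 28 without cKI 2 and 28 without cKI 3.

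In those 41 genes the knockin difference was 47.6% of the regional one at the median and ranged from 18.1% to 174%. The call in the knockin chose these genes, which favours large shares. Over all regional genes the median differences were 0.13 beside 1.57 for jejunum-high genes and -0.40 beside -1.41 for ileum-high genes. Among the genes close to the full regional difference were Slc13a1 (84.7%), Lmcd1 (83.3%), a LIM domain cofactor, Prss12 (88.2%), a secreted protease, and Slc16a12 (106%), a creatine transporter. H2-Aa, an MHC class II gene, was another, at -0.97 in the knockin beside -1.11 between regions. Prss12 lost its call without control 3 (0.0585) or cKI 1 (0.0703), and Slc16a12 without control 3 or cKI 3 (0.0612 and 0.0696). At the low end stood Fabp6 (21.1%), Gstm6 (24.6%) and Slc10a2 (25%). In 26 of the 41 genes the knockin and regional differences differed by the test.

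**Figure D3:**
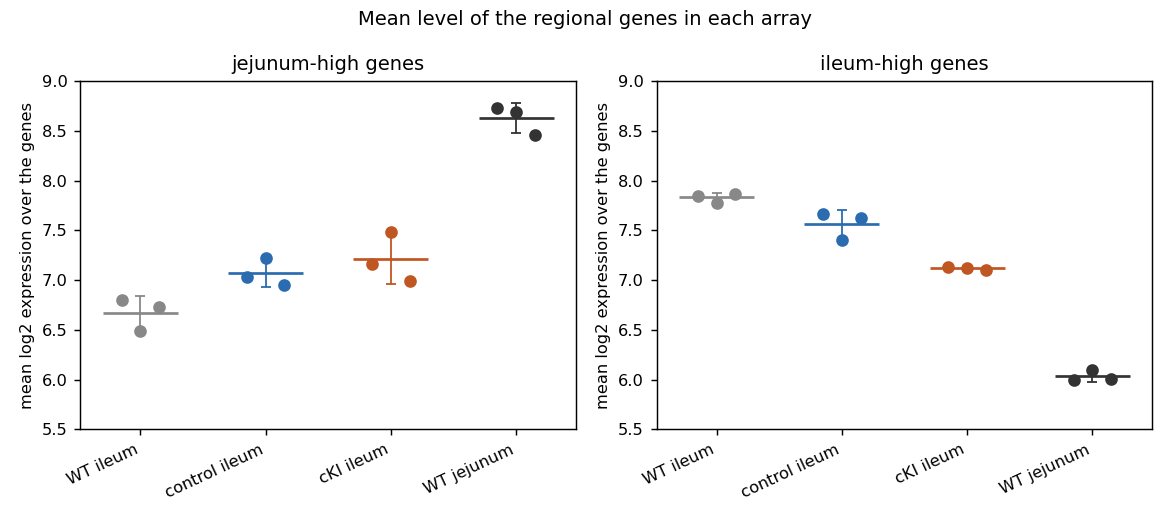
Mean log2 expression of the 491 jejunum-high genes (left) and of the 233 ileum-high genes (right) in each array of 4 groups, with the group mean (line) and SD (bar). On the left the control and cKI arrays overlap, and on the right the 3 cKI arrays, from 7.10 to 7.14, lie below the 3 control arrays, from 7.40 to 7.67.

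As a mean per array, jejunum-high genes stood at 7.03, 7.23 and 6.95 in controls and at 7.16, 7.49 and 6.99 in cKI arrays, with overlap (exact two-sided permutation p = 0.6). Within pairs of equal number the cKI array was higher by 0.13, 0.26 and 0.04, and with 3 pairs the exact paired permutation test gave 0.25, the smallest p it can give. Ileum-high genes stood at 7.67, 7.40 and 7.63 in controls and at 7.14, 7.12 and 7.10 in cKI arrays, a difference of -0.45. With 3 arrays against 3, p = 0.1 is the smallest that the exact permutation test can give, and it was reached for the ileum-high genes. On an index that is 0 for wild-type ileum and 1 for wild-type jejunum, being the mean of jejunum-high minus that of ileum-high genes, controls stood at 0.14, 0.26 and 0.13 and cKI arrays at 0.32, 0.41 and 0.28. These did not overlap, and the difference was 0.16 (exact permutation p = 0.1). The controls themselves lay above the 3 wild-type ileum arrays, which ranged from -0.04 to 0.03.

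Some called genes moved against the regional difference or had none. Gsdmc2, a gasdermin higher in the ileum than in the jejunum, was at 8.63, 8.17 and 8.25 in controls and at 9.85, 9.08 and 9.87 in cKI arrays (1.25 ± 0.26, adjusted p = 0.0428; 0.102 to 0.179 without control 2, control 3, cKI 1 or cKI 3). Its paralog Gsdmc4 had a difference of 2.17 ± 0.652 (adjusted p = 0.147, and 0.00648 with the replicate block), and probes of these similar genes can share signal. Cyp4f13, a cytochrome P450 of lipid oxidation that was higher in the jejunum, fell by 0.61 (adjusted p = 0.0204; 0.0625 to 0.0844 without control 2, cKI 1 or cKI 2, and 0.0597 with the replicate block).

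Of the 12 lower genes not called between regions, 5 fell by at least 2-fold: Enpp4, Mettl7b, Adamdec1, Vim and Igfbp7. Enpp4, a membrane phosphodiesterase, was at 7.81, 7.98 and 7.85 in controls and at 6.67, 6.43 and 6.72 in cKI arrays (-1.28 ± 0.191, adjusted p = 0.00899), and was called in every alternative. Mettl7b, a thiol methyltransferase, differed by -1.23 ± 0.215 (adjusted p = 0.0172; 0.0673 to 0.0815 without control 2, cKI 1 or cKI 3). Among rises without a regional call, Ccl9, a chemokine, was at 7.27, 7.04 and 6.92 in controls and at 8.16, 7.99 and 8.04 in cKI arrays (0.99 ± 0.169, adjusted p = 0.0161; 0.0529 to 0.073 without control 2, control 3, cKI 1 or cKI 3). Mif, a cytokine with tautomerase activity, rose by 0.74 ± 0.136 (adjusted p = 0.0219; 0.061 to 0.089 without control 2, cKI 2 or cKI 3).

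Genes of cholesterol synthesis and of goblet cells were among the called falls. Hmgcs1, which makes the precursor of mevalonate, fell by 0.74 (adjusted p = 0.0145; 0.0703 without cKI 1), and Insig1, which retains SREBP in the endoplasmic reticulum, by 0.92 (adjusted p = 0.0199; 0.0581 without control 2 and 0.0815 without cKI 1). These were the 2 calls among 21 tested genes, of which 20 had a negative difference, and the median was -0.23. Cyp51, a sterol demethylase, differed by -0.55 (adjusted p = 0.133). Among 17 goblet cell genes, Clca1, a secreted mucus protein, was the 1 call, at 12.41, 12.30 and 12.13 in controls and 11.62, 11.53 and 11.49 in cKI arrays (-0.74 ± 0.118, adjusted p = 0.0141; 0.0557 in the fit of 6 arrays). Muc2, the main gel-forming mucin, differed by -0.53 (adjusted p = 0.0589, and from 0.0146 to 0.216 over the alternatives), and the list's median was -0.19.

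**Figure D4:**
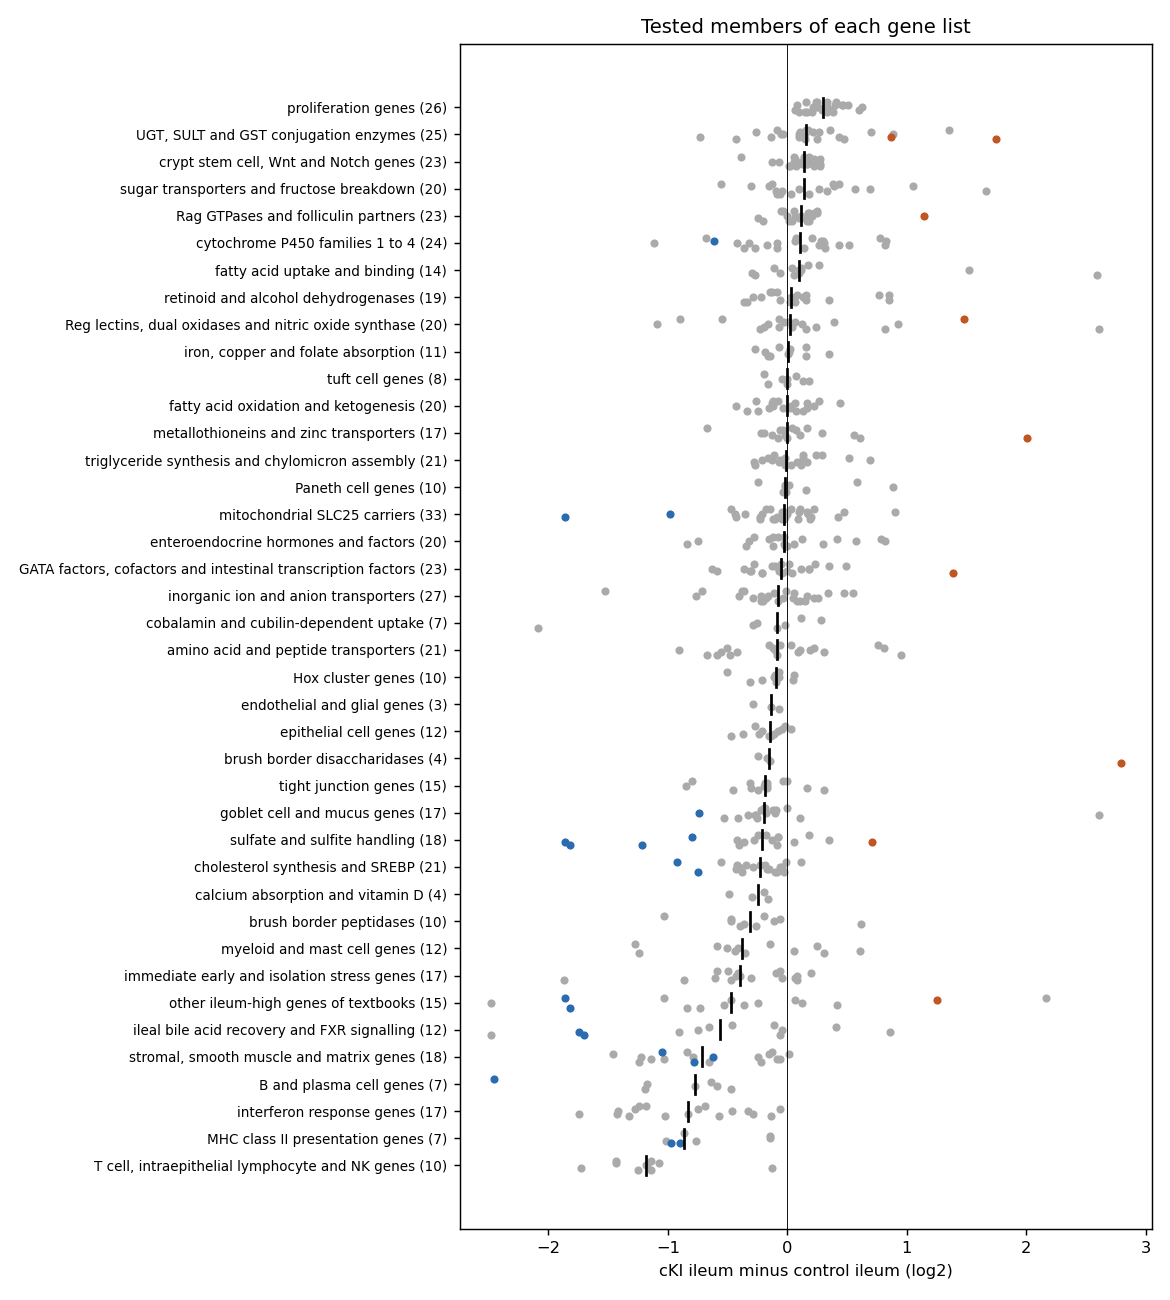
Each point is a tested member of 1 of 40 gene lists, placed by its difference between cKI and control ileum (x axis, log2), with called rises in orange, called falls in blue and the list's median as a bar; the number of tested members is in parentheses. Called members occur in 16 lists, and the lists of T and NK cells, MHC class II, interferon response, B and plasma cells and stroma lie lowest, with medians from -1.18 to -0.72.

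Genes typical of cells other than epithelium were also among the called falls. Of 18 tested stromal genes 17 had a negative difference, and 3 were called lower: Vim, an intermediate filament, by -1.05, Pdgfrb, a pericyte receptor, by -0.78, and Thy1, a fibroblast and T cell surface protein, by -0.62. The list averaged 5.69, 6.76 and 6.11 in controls and 5.40, 5.76 and 5.45 in cKI arrays, with overlap. The cKI array was the lower one in each of the 3 pairs of equal number. That was also so in lists with medians near 0, such as ion transporters (-0.08) and mitochondrial carriers (-0.03). The median difference of the stromal list was -0.72, and -0.46 without control 2. All 3 lost the call without control 2, cKI 1 or cKI 3 (adjusted p up to 0.194), and Vim and Thy1 without control 3 too; Thy1 was also lost without cKI 2 and stood at 0.055 with the replicate block. Abi3bp, an extracellular matrix protein, stood at 6.24, 6.41 and 6.18 in controls and at 4.51, 3.87 and 4.31 in cKI arrays (-2.05 ± 0.343, adjusted p = 0.0158; 0.0527 without control 2). Igfbp7 and Serping1, secreted proteins common in stroma and vessels, differed by -1.02 and -0.99 (adjusted p = 0.0454 and 0.0158). Igfbp7 was not called without control 2, control 3, cKI 1 or cKI 3, nor Serping1 without cKI 1 or cKI 3 (0.0542 to 0.163 for the pair). Without control 2, Serping1 fell below the level filter and was not tested.

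The lists of B, plasma, T and NK cell genes had 1 called fall. Jchain, the joining chain of secreted antibodies, was at 7.24, 9.14 and 7.79 in controls and at 5.31, 6.05 and 5.44 in cKI arrays, the largest called fall (-2.45 ± 0.48, adjusted p = 0.0347; 0.0612 to 0.136 without control 2, control 3, cKI 1 or cKI 3). It was the 1 call among 7 B and plasma cell genes, whose mean was 4.84, 6.65 and 6.37 in controls and 4.89, 5.03 and 4.81 in cKI arrays, and whose median difference was -0.77 (-0.48 without control 2). All 10 T and NK cell genes had negative differences, with a median of -1.18 (-1.04 without control 2). limma called 0 of them, with 9 at an unadjusted p below 0.05, and the list averaged 6.66, 7.45 and 7.19 in controls against 5.92, 6.63 and 5.25 in cKI arrays. Lat, a T cell adaptor protein in neither list, was also called lower. Its call was lost without control 2, control 3, cKI 1 or cKI 3 (adjusted p from 0.12 to 0.194). Adamdec1, a metalloprotease of mucosal macrophages and fibroblasts, was called lower by -1.69 ± 0.348 (adjusted p = 0.0398; 0.0505 to 0.165 without control 2, cKI 1 or cKI 3). In bulk arrays, fewer cells of a type and less RNA per cell cannot be told apart.

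MHC class II genes, which antigen-presenting cells and ileal enterocytes both express, included 2 falls among 7 tested. H2-Aa, a class II chain, was at 9.42, 9.77 and 9.89 in controls and at 8.38, 8.96 and 8.82 in cKI arrays (-0.97 ± 0.204, adjusted p = 0.0454; 0.0969 to 0.194 without control 2, control 3, cKI 1 or cKI 3). Ciita, the class II transactivator, differed by -0.90 ± 0.178 (adjusted p = 0.0365, and 0.0526 with the replicate block), and was called in 1 of the 6 fits with 1 array fewer, the one without control 1 (0.0625 to 0.143 in the other 5). The list averaged 7.90, 8.71 and 9.0 in controls and 7.64, 8.03 and 7.89 in cKI arrays, so control 1 lay among the cKI arrays. The cKI array was the lower one in each of the 3 pairs of equal number, a pairing that the labels do not give. The part that non-epithelial cells have in these falls, and in the ileum-high genes H2-Aa, Ciita, Jchain, Pdgfrb and Abi3bp, was not tested. Without control 2, the genes Suox, Slc13a1, Sqor, Fabp6, Slc10a2, Mt1 and Gata4 were all called, with adjusted p from 0.000243 for Suox to 0.0351 for Slc10a2.

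**Figure D5:**
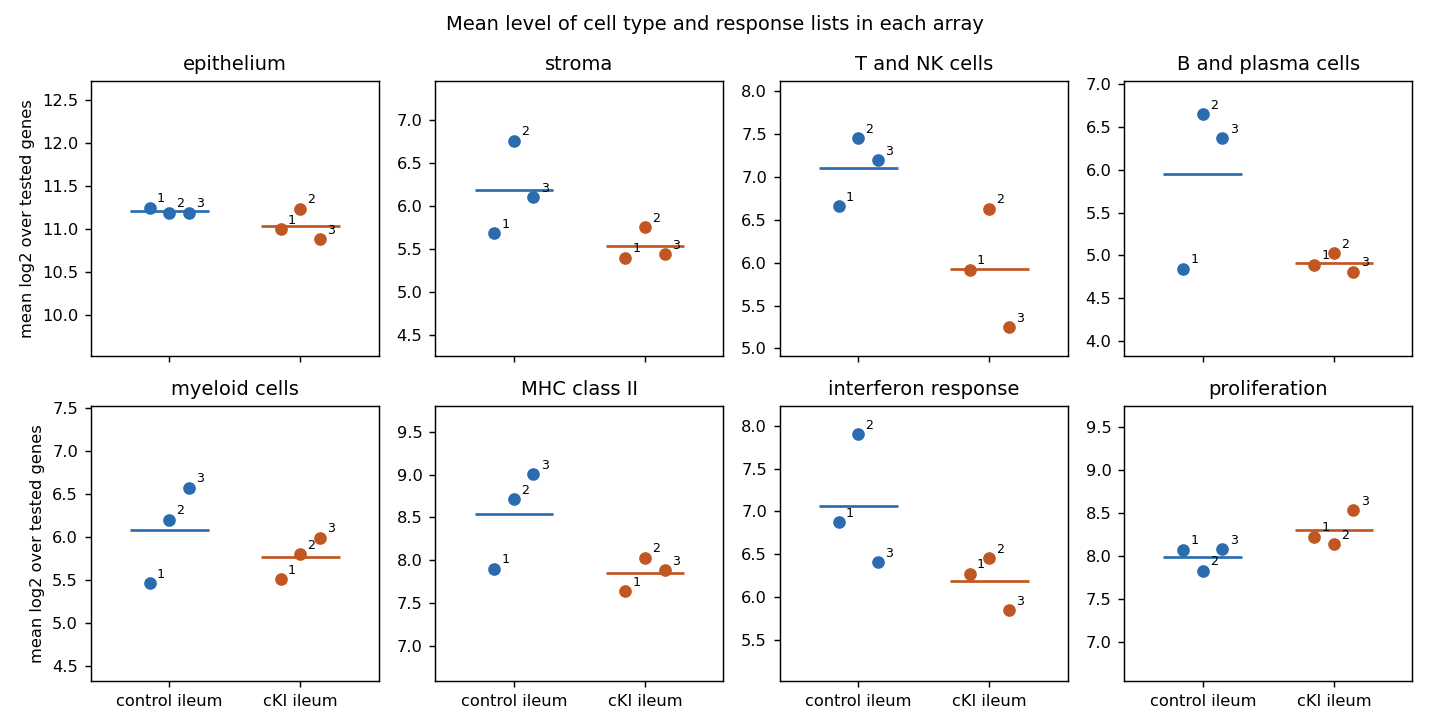
Mean log2 level over the tested members of 8 marker or response lists in each control and cKI array (points, numbered by array), with the group mean as a line; each axis spans the same width. Control 2 is the highest array for stroma, T and NK cells, B and plasma cells and interferon response, and the epithelial list stays between 10.88 and 11.25.

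Over all 40 lists, 621 distinct genes were tested, and 24 lists had no called member. Those 24 lists held medians from -1.18 in T and NK cells to 0.30 in proliferation. They include lists near the median of all genes, among them triglyceride synthesis and chylomicron assembly (21 tested, median -0.01), fatty acid oxidation (20, -0.01), Paneth cells (10, -0.02), enteroendocrine cells (20, -0.03) and tuft cells (8, 0.00). limma called 0 in each, and at an unadjusted p below 0.05 the counts were 0, 2, 1, 4 and 0. Transcript clusters without a single gene name gave no call either: 0 of 872 with several symbols and 0 of 5699 absent from the annotation, with 153 and 453 at an unadjusted p below 0.05.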

How the data were processed

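Transcript levels were measured on Affymetrix Mouse Gene 1.0 arrays from isolated small intestinal epithelial cells. The deposited log2 values, 1 for each of 35556 transcript clusters on 15 arrays, were made by the authors in Partek, per the labels. How Partek was run (its version, background correction, normalization and summarization) is not given in the sources used here. Of the clusters, 21789 carried exactly 1 gene symbol in the platform annotation, 1621 several and 12146 none. For the 999 of 19938 genes with several clusters, the cluster of highest overall mean stands for the gene, and the level filter removed 8154 genes.

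limma 3.58.1 in R 4.3.3 fitted 1 mean for each of 5 groups over the 15 arrays (eBayes, 10 residual degrees of freedom, two-sided). Adjusted p-values are Benjamini-Hochberg over the 11784 genes tested, with a threshold of 0.05. The steps were tested on simulated data. Single values per array were compared with exact permutation tests.

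Equal replicate numbers of cKI and control arrays correlated by 0.128, 0.177 and 0.258 after removal of group means, each over the limit of 0.1 used here, so the numbers were taken to pair the arrays, although the labels do not say so. The number is left out of the fit and enters as a block in an alternative. Other alternatives were the 6 arrays alone, the filter, quantile or median scaling, array weights, the mean of clusters, a trended prior and leaving out each array.

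Named genes are Gata4, Gata5, Gata6, Fabp6, Suox, Rragd and Mt1, the 20 largest called rises and 20 largest called falls, and from each of 40 gene lists every called member or, with under 3 called, the 4 of smallest p. Chek1, Gstm7, Igfbp7, Lat, Pld2, Serping1, Onecut2, Fgf15, Slc51a, Slc51b, Nr1h4, Tst, Ethe1, Mt2, Gsdmc4, Gcg, Slc6a20a, Slc6a20b, Slc3a1 and Slc7a9 fall outside this rule and were named after their values were seen. The comparison, its genes and the lists were chosen with earlier results of these data known.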

Additional observations from a re-analysis of the deposited data

How the results depend on the processing

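The counts of genes higher, lower and regional (40, 50 and 41) were within 1.5 times of these under the stricter filter, quantile normalization, centring on array medians, the mean of clusters and the trended prior, and also with the replicate block (30, 66 and 44). They were 7, 12 and 12 in the fit of the 6 arrays alone, 19, 33 and 28 without the level filter, and 388, 378 and 158 with array weights. Leaving out 1 array gave 6 to 37 genes higher, 13 to 155 lower and 14 to 46 regional. Of the 90 called genes, 10 kept their call in each alternative that tested them (all 15 for 9 genes and 14 for Lmcd1) and 80 lost it in at least 1. The share of calls that were higher, 44.4%, was 34.8% with quantile normalization, 45.1% with centring, 15.4% without control 3 and 19.3% without control 1. The block left 21 of the 40 higher and 40 of the 50 lower calls in place. Pld2, a called rise, stood at -0.062 (adjusted p = 0.879) in the fit without control 1, and fits with 1 array fewer ranged from -0.062 to 0.595. Each fit chose the transcript cluster of highest mean anew, and the Pld2 clusters had close means of 6.29 and 6.27. The cluster of the main fit had no overlap between groups, so leaving out 1 array cannot reverse its sign. The fit without control 1 therefore used the other cluster, which differed by 0.04 over all arrays of both groups. Among genes not called, Sis turned to 0.13 with array weights and 0.058 without cKI 3 (range -0.417 to 0.058 with 1 array fewer), and Treh to 0.13 without cKI 3 (range -0.606 to 0.13). The cause of the changes in Sis and Treh was not tested. The index difference of 0.16 ranged from 0.12 to 0.20 with 1 array left out, and was 0.153 with regional genes of at least 4-fold and 0.149 with quantile normalization. Signal near the level filter limits genes such as Il33, Lmcd1, Prss12 and Slc16a12, whose control means lay below it.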

Other observations

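Cell cycle genes stood slightly higher in the knockin ileum without passing the test. All 26 tested proliferation genes had a positive difference, beside 56.7% of all genes tested. Their median was 0.30, and 0.20 without control 2, the lowest array of the list, with 0 members negative. limma called 0 of them, with 6 at an unadjusted p below 0.05. The smallest p were those of Ccnb2, a mitotic cyclin (0.51, adjusted p = 0.181), and Tyms, which makes thymidylate (0.60, adjusted p = 0.204). The list averaged 8.07, 7.82 and 8.07 in controls and 8.22, 8.13 and 8.53 in cKI arrays, with no overlap. Array means were apart also in lists with medians nearer 0, such as mitochondrial carriers (-0.03). Chek1, a checkpoint kinase that is in no list, was called higher by 0.60 (adjusted p just below 0.05; 0.0621 to 0.175 in the fits without control 1, 2 or 3, cKI 1 or cKI 3, and 0.0663 with the replicate block), and lost the call in 4 other alternatives too. Crypt stem cell, Wnt and Notch genes had a median of 0.14, with 20 of 23 differences positive and 0 called (2 at an unadjusted p below 0.05).

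Interferon response genes had negative differences, which rested in part on control 2. All 17 tested members were below 0, with a median of -0.83 (-0.37 without control 2, with 14 members below 0), and limma called 0, with 11 at an unadjusted p below 0.05. Ifit3 was at 6.96, 9.14 and 5.91 in controls and at 5.55, 5.46 and 5.76 in cKI arrays (-1.75, adjusted p = 0.149, and 0.0322 without control 3), and Oas3 differed by -1.33 (adjusted p = 0.131, and 0.0155 with the replicate block). Control 2 was the highest array for both, and without it the differences were -0.84 and -0.75 (adjusted p = 0.301 and 0.328). The list means overlapped between the groups. Hormone genes had no call among 20, with 4 at an unadjusted p below 0.05. Of these 4, Cck, of proximal I cells, differed by 0.79 (adjusted p = 0.0878), and Pyy, of distal L cells, by -0.84 (adjusted p = 0.169). The other members were Neurog3, a lineage factor, at 0.81 (adjusted p = 0.0956), and the hormone gene Nts at -0.74 (adjusted p = 0.221). Gcg, also of L cells, differed by -0.02 (adjusted p = 0.986). Amino acid carriers had no call among 21, with 8 at an unadjusted p below 0.05. Slc7a8 and Slc16a10, basolateral carriers that are higher in the jejunum, differed by 0.96 and 0.81 (adjusted p = 0.0995 and 0.1). Slc36a1, also higher in the jejunum, differed by 0.76 (adjusted p = 0.199). Slc1a1, a glutamate carrier that is higher in the ileum, differed by -0.50 (adjusted p = 0.0617). Slc6a20a and Slc6a20b, 1.31 and 1.29 higher in the jejunum, went against their region, by -0.55 and -0.91 (adjusted p = 0.219 and 0.244). Slc3a1 and Slc7a9, with regional differences of 0.15 and -0.04, differed by -0.59 and -0.42.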
